A study of Homo sapiens with 6 samples.

Results

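The genes described here are the 107 loci, among 6357 in the expression table, whose gene symbols carry the names of secretory pathway and vesicle trafficking proteins. They were taken by symbol alone (SEC, SSR, SPCS, SAR1, TMED, COP, TRAPPC, GOLG, ARF, RAB, AP1 to AP3, VPS, SNX, STX, VAMP and EXOC names). The rule on names used no expression values, but it was set with earlier results of these data known. The cells are HepG2, a cell line from a human liver tumour that secretes many plasma proteins, and the comparison is between 3 libraries of wild-type (WT) cells and 3 libraries of cells in which FN3K, the kinase that phosphorylates fructosamines on glycated proteins, was knocked out with CRISPR-Cas (KO). Both groups were grown in triplicate plates in EMEM with fetal bovine serum, with no other treatment. The number of KO clones behind the KO plates is not given in the sources used here, so the loss of FN3K and the history of the edited cells cannot be told apart, and p-values measure the spread between plates.

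Proteins made for secretion enter the endoplasmic reticulum (ER) through the SEC61 channel, helped by SEC62, SEC63 and the translocon-associated proteins SSR1 to SSR4, and signal peptidase (SEC11 and SPCS subunits) cuts off their signal sequence. COPII vesicles, built by SAR1 GTPases and SEC23, SEC24, SEC13 and SEC31, carry them to the Golgi, where p24 proteins (TMED) act as cargo receptors and COPI vesicles return material to the ER. TRAPP complexes, golgins, Rab and ARF GTPases, clathrin adaptors (AP complexes), SNAREs, sorting nexins, retromer and ESCRT proteins then direct traffic between Golgi, endosomes, lysosomes and the plasma membrane. Hepatocytes depend on this route for their export of plasma proteins and lipoproteins.

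In FN3K KO cells the genes for entry into the ER were lower: 9 of the 11 translocon and signal peptidase genes passed the test as lower and 0 as higher, and their median was -0.52 on the log2 scale. Over all 6357 loci, 36.5% were lower and 21.2% higher, with a median of -0.14. Genes of later steps went both ways. Of the 5 COPII genes in the table, SAR1B, SEC24A and SEC24D were higher by 0.34 to 0.38 on the log2 scale. SAR1B and SEC24A have overlapping exons, and the table holds no SEC13, SEC23 or SEC31 gene. COPI subunits split, and 4 of 7 TRAPP genes were higher. The largest single change was in AP1M2, the epithelial medium chain of the AP-1 clathrin adaptor, which rose from 0.987, 1.63 and 1.74 FPKM in the WT libraries to 9.65, 9.77 and 9.14 FPKM in the KO libraries. FPKM, the deposited unit, corrects fragment numbers for transcript length and for the total of each library, and all fold changes are KO over WT on log2(FPKM + 1), a scale that understates the change of genes with low FPKM.

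A gene was called at a Benjamini-Hochberg adjusted p under 0.05 from limma, a linear model with shared variance estimates, adjusted over all 6357 loci. By this rule 28 of the 107 trafficking genes were higher and 32 were lower. Over all loci, 21.2% were higher and 36.5% were lower (57.7% in either direction), so 26.2% higher and 29.9% lower among the trafficking genes is near the background. The median log2 fold change was -0.14 over all loci and -0.02 over the trafficking genes. Because of this general shift, calls near 0 depend on the scaling: with each library set to the same median FPKM, 39 trafficking genes were higher and 24 lower. The share of higher among called trafficking genes was 46.7% as deposited and 61.9% after that scaling. Among all called loci the share was 36.7% as deposited and 45.01% after that scaling (1616 higher and 1974 lower), so it rose there too. With the library adjustment of Ballgown as a covariate in an ordinary linear model, 17 of these 60 genes passed: SEC61A1, SEC63, SSR4, SPCS2, SPCS3, SEC11C, SEC24A, COPZ1, TRAPPC1, AP1M2, RAB18, RAB20, RAB24, SNX6, VPS37C, VAMP5 and VAMP8. The other 43 lost their call with that adjustment, at adjusted p-values from 0.052 (STX4) to 0.68 (RAB17). This loss applies to each call among the 107 genes described below that is not one of the 17. That model called 1127 of all 6357 loci, against 3670 in the main fit. It also has no shared variance estimates, so the effects of the covariate and of the model on the calls cannot be told apart. In 34 trafficking genes every KO library lay above every WT library, and in 33 below (23.6% and 39.8% of all loci, 63.4% in either direction). By another rule, a change of more than 1 on the log2 scale with a limma p under 0.05 before adjustment, 2 trafficking genes were higher (AP1M2 and RAB29; 4.31% of all loci were) and 3 lower (GOLGA8B, SEC16A and RAB24; 3.32% of all loci were).

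**Figure D1:**
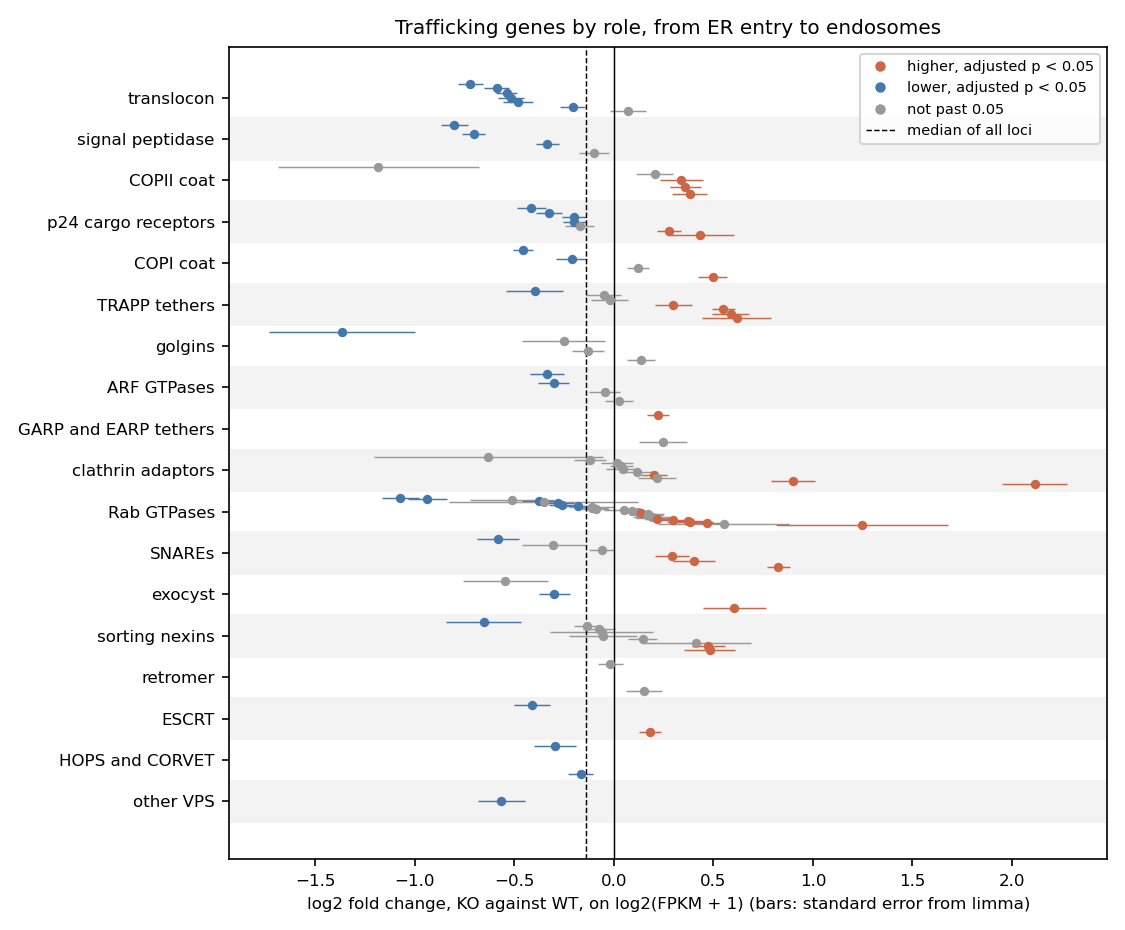
Log2 fold change (x axis, KO over WT on log2(FPKM + 1)) of trafficking genes in rows by role, with bars for the limma standard error, orange for higher and blue for lower at an adjusted p under 0.05, grey for neither, and a dashed line at the median of all loci (-0.14). All called translocon and signal peptidase genes lie to the left of 0 and all called COPII genes to its right; SEC14L1, which has no trafficking role here, and VPS13C, listed at 0 in every WT library, are not drawn.

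The libraries summed to between 289983 and 314164 FPKM, and their depth is unknown, since no whole-read steps could be found among low values. FN3K, the targeted gene, had 27.7, 21.9 and 23.2 FPKM in WT and 0.782, 1.03 and 0.704 FPKM in KO (log2 fold change -3.78, SE 0.13, limma adjusted p = 1.11e-07). Mitochondrially encoded transcripts held 10.0% to 10.8% of all FPKM in the WT libraries and 13.1% to 20.1% in the KO libraries. The part of this difference in the results below was not tested. APOA1, APOB, TTR, SERPINA1, FGB, AFP and TF, made by hepatocytes and HepG2 cells, were each at 53.1 FPKM or more in every library. ALB was sought too but is not named in the expression table. The same holds for markers of blood cells (PTPRC, CD3E, CD68), fibroblasts (COL1A1, COL3A1, PDGFRB) and endothelium (PECAM1, VWF, CDH5). These genes could therefore not be read. Of the 7 hepatocyte genes found, TTR (log2 fold change 2.90), AFP (2.01), APOA1 (1.14), APOB (0.66) and FGB (0.52) were higher in KO, and SERPINA1 (0.08) and TF (-0.03) were not called.

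Promoter sequences were searched because several genes of the ER are known targets of the unfolded protein response, whose factors ATF6 and XBP1 bind the letters TGACGTGG. RefSeq promoter windows (build GRCh38.p14, 250 bases before to 50 after each transcript start, both strands) were at hand for 89 of the 107 genes. The letters were present for 8 of these 89 genes (8.99%), against 0.927% of all 27305 genes with a window and 1.32% of the 3726 genes that are also in the expression table. The 8 genes were ARF1, COPA, COPB2, SEC16A, SEC24A, SEC62, SSR3 and SSR4. Stretches of 30 bases around the match are shown for the called genes, read 5′ to 3′ on the strand that carries the letters, with TGACGTGG in capitals.
SSR4, chrX:153794528-153794557 (- strand): tctggcagcacTGACGTGGcccctccctga
SSR3, chr3:156554148-156554177 (+ strand): agtttccttgcTGACGTGGctgttatcaga
SEC62, chr3:169966779-169966808 (- strand): ccggttccctcTGACGTGGagcgaggaggg
ARF1, chr1:228082681-228082710 (+ strand): cccggaggcgcTGACGTGGccgccgtcaga
SEC24A, chr5:134648595-134648624 (+ strand): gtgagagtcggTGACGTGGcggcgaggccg
COPB2, chr3:139389632-139389661 (+ strand): gtcagactgacTGACGTGGaacttccggga
COPB2, chr3:139389825-139389854 (+ strand): actaagggccgTGACGTGGtgccgctgagc
The SSR4, SEC62 and ARF1 stretches lie in annotated exons of their own genes, in the untranslated part, and the SSR3 stretch lies within the SSR3 gene and in no annotated exon. The first COPB2 stretch lies in an exon of COPB2 and the other upstream of it, within an exon of a neighbouring annotated gene. The SEC24A stretch lies in an untranslated exon of SAR1B, since both genes start head to head from one short region, and both were higher in KO.

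The genes with these letters did not share a direction. SSR4, SSR3, SEC62 and ARF1 were lower in KO, COPB2 and SEC24A were higher, and COPA and SEC16A did not pass the test. Among all 49 loci of the table whose gene has the letters, 15 were higher and 19 lower (30.6% and 38.8%, against 23% and 36.5% of the loci without them), with a median of -0.12. The longer element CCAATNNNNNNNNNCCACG, which ATF6 binds together with NF-Y, was in the window of 0 of the 89 trafficking genes, and 10 of the 11 loci of the table that have it were lower (90.9%, against 36.4% of the loci without it), with a median of -0.78. The letters TGACGTCA, bound by CREB and its relatives, were present for AP2B1 and TRAPPC1 (2.25% of the 89, 2.25% of all genes and 4.05% of those in the table). CACGTG, an E-box read by TFEB and other factors, was present for 11 of the 89 (12.4%, against 8.77% of all genes and 14% of those in the table), and TCACNCCAC, a sterol response element, for VAMP5 alone (1.12%, against 1.39% of all genes and 1.34% of those in the table). In the trafficking genes, no TGACGTGG match shared a base with a match of the other motifs. These matches describe letters in a window and are no evidence of binding. How many of the 11 loci with the longer element are on the unfolded protein response list read below was not counted. Both sets may hold the same genes.

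SEC61A1, the channel-forming subunit of the translocon (chr3:128051641-128071683, + strand), had 148, 154 and 161 FPKM in WT and 108, 108 and 103 FPKM in KO (log2 fold change -0.54, SE 0.054, limma adjusted p = 5.46e-05). Its partner in post-translational import, SEC63, had 30.4, 29.4 and 30.4 FPKM in WT and 20.9, 19.3 and 18.8 FPKM in KO (log2 fold change -0.59, SE 0.062, limma adjusted p = 7.04e-05). The KO libraries of both genes lay below every WT library.

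The 3 subunits of the translocon-associated protein complex in the table also fell. SSR4 had 45.5, 49.1 and 51.04 FPKM in WT and 27.4, 29.96 and 29.8 FPKM in KO (log2 fold change -0.72, SE 0.064, limma adjusted p = 2.75e-05). SSR2 had 119, 117 and 124 FPKM in WT and 87.7, 76.1 and 87.6 FPKM in KO (log2 fold change -0.52, SE 0.067, limma adjusted p = 0.000246), and SSR3 had 68.6, 72.8 and 75.5 FPKM in WT and 54.8, 45.98 and 53.8 FPKM in KO (log2 fold change -0.48, SE 0.075, limma adjusted p = 0.000707). SEC62, another helper of the channel, changed less, with 18.2, 19.4 and 19.3 FPKM in WT and 15.9, 16.4 and 16.5 FPKM in KO (log2 fold change -0.21, SE 0.062, limma adjusted p = 0.0191). The call was lost under median scaling (log2 fold change -0.14, limma adjusted p = 0.062) and without WT replicate 2, WT replicate 3 or KO replicate 1 (limma adjusted p between 0.059 and 0.071). SEC61G, the small gamma subunit of the channel, was an exception, with 65.8, 70.3 and 63.1 FPKM in WT and 74.8, 60.3 and 75.2 FPKM in KO and overlapping groups (log2 fold change 0.07, SE 0.089, limma adjusted p = 0.508). Without KO replicate 2 it was called higher (log2 fold change 0.17, limma adjusted p = 0.045), and with the Ballgown adjustment it was at -0.07 with no call.

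Signal peptidase showed the same direction in all 4 subunits listed, of which 3 passed. SPCS3, an accessory subunit, had 27.2, 30.8 and 31.04 FPKM in WT and 16.7, 16.7 and 16.4 FPKM in KO (log2 fold change -0.80, SE 0.068, limma adjusted p = 2.04e-05). SEC11C, a catalytic subunit, had 42.3, 42.4 and 42.5 FPKM in WT and 26.96, 24.1 and 25.996 FPKM in KO (log2 fold change -0.70, SE 0.058, limma adjusted p = 1.84e-05), and its WT libraries were nearly equal. SPCS2 had 32.7, 30.99 and 31.7 FPKM in WT and 25.7, 23.6 and 25.7 FPKM in KO (log2 fold change -0.33, SE 0.059, limma adjusted p = 0.00147), while SPCS1, with 13.3, 12.5 and 14.3 FPKM in WT and 12.7, 12.5 and 11.9 FPKM in KO, did not pass (log2 fold change -0.10, SE 0.075, limma adjusted p = 0.281). Summed over the 11 genes of ER entry, the WT libraries held 611, 629 and 645 FPKM and the KO libraries 471, 433 and 465 FPKM. In bulk samples, fewer cells that express a gene and less RNA of it per cell cannot be told apart. The groups of these sums do not overlap, and 8 of the 11 genes were lower at an adjusted p under 0.05 after median scaling, under which the median over all loci was still -0.07, and 6 with the library adjustment of Ballgown.

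**Figure D2:**
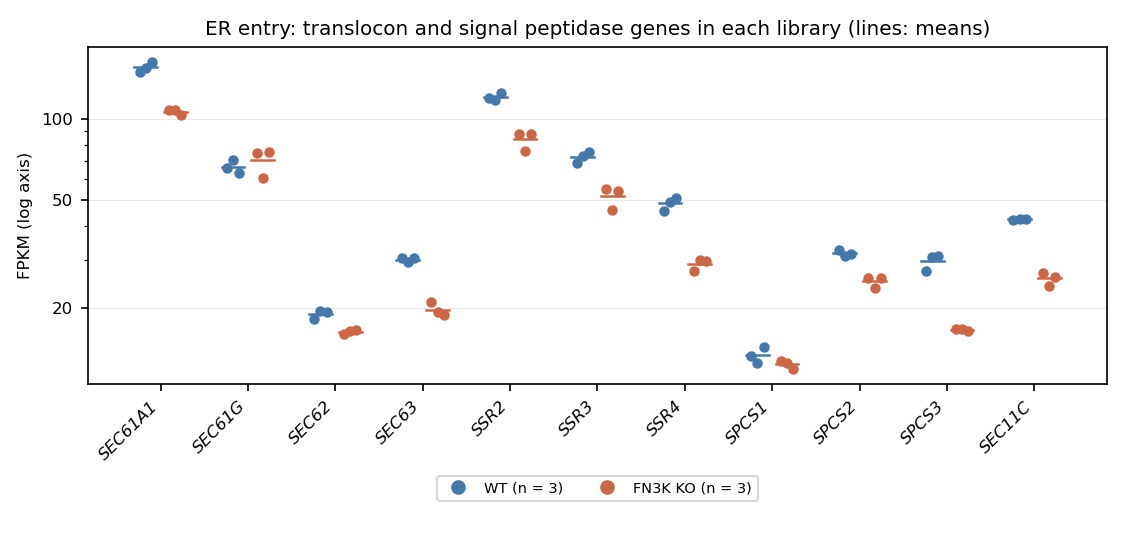
FPKM on a log axis of the 11 translocon and signal peptidase genes in each WT library (blue) and KO library (orange), with lines at the group means (n = 3 each). The KO points lie below all WT points in 9 genes, and overlap them in SEC61G and SPCS1.

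At ER exit, 3 of the 5 COPII genes were higher and 0 lower (60% and 0%, against 21.2% and 36.5% of all loci). No SEC13, SEC23 or SEC31 gene is in the table, so the 5 genes cover only part of the coat and its helpers. SEC24A, which selects cargo for the coat, had 7.53, 7.63 and 8.52 FPKM in WT and 10.7, 11.01 and 10.1 FPKM in KO (log2 fold change 0.38, SE 0.086, limma adjusted p = 0.00512), and SEC24D, its relative, had 10.6, 14.02 and 14.4 FPKM in WT and 16.96, 15.9 and 16.8 FPKM in KO (log2 fold change 0.34, SE 0.11, limma adjusted p = 0.0255). The call of SEC24D was lost without any of the KO libraries (limma adjusted p between 0.051 and 0.078). SAR1B, the GTPase that starts coat assembly and is needed for chylomicron and lipoprotein export, had 8.32, 8.33 and 8.22 FPKM in WT and 10.8, 10.5 and 11.4 FPKM in KO (log2 fold change 0.36, SE 0.077, limma adjusted p = 0.00401). All KO libraries of these 3 genes lay above all WT libraries. The exons of SAR1B (chr5:134601144-134649271, - strand) and SEC24A (chr5:134648789-134727823, + strand) overlap at their starts, and the strand of the libraries is not given in the sources used here, so their fragments may not be fully separated. SAR1A, the paralog, had 9.80, 11.1 and 11.8 FPKM in WT and 13.8, 11.99 and 12.3 FPKM in KO and no call (log2 fold change 0.21, SE 0.091, limma adjusted p = 0.0819), although its groups do not overlap and it passed under median scaling (adjusted p = 0.022 from limma). SEC16A, the scaffold of ER exit sites, varied widely, with 1.84, 4.05 and 3.33 FPKM in WT and 0.192, 0.118 and 2.99 FPKM in KO; KO replicate 3 lay inside the WT range, and the adjusted p was 0.072 from limma with a log2 fold change of -1.18. Without that library the limma adjusted p was 0.0068.

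Of the 7 p24 cargo receptors, 4 were lower and 2 higher (57.1% and 28.6%, against 36.5% and 21.2% of all loci). TMED7 had 45.6, 54.8 and 53.4 FPKM in WT and 37.2, 39.1 and 37.98 FPKM in KO (log2 fold change -0.42, SE 0.074, limma adjusted p = 0.00146), and TMED5 had 29.7, 34.05 and 33.2 FPKM in WT and 26.5, 25.5 and 24.7 FPKM in KO (log2 fold change -0.33, SE 0.067, limma adjusted p = 0.00330). With the Ballgown adjustment their adjusted p-values were 0.14 and 0.20. The abundant TMED2 was lower by a smaller step, with 105, 116 and 116 FPKM in WT and 99.3, 96.7 and 96.8 FPKM in KO (log2 fold change -0.20, SE 0.056, limma adjusted p = 0.0151). Its call was lost under median scaling and without WT replicate 2 or 3 (limma adjusted p between 0.056 and 0.064). In these genes no KO library reached a WT library, and the same was true of TMED4 (log2 fold change -0.20), whose call was lost under median scaling (limma adjusted p = 0.055) and without any of 4 libraries (WT replicates 2 and 3, KO replicates 1 and 3, limma adjusted p between 0.052 and 0.072). TMED9, the most abundant p24 gene, had 105, 110.0 and 125 FPKM in WT and 95.9, 106 and 99.4 FPKM in KO and did not pass (log2 fold change -0.17, SE 0.072, limma adjusted p = 0.0709). TMED3 went the other way, with 41.3, 40.04 and 42.8 FPKM in WT and 50.3, 47.8 and 52.98 FPKM in KO (log2 fold change 0.28, SE 0.058, limma adjusted p = 0.00354). TMED1 was called as higher at the edge of the threshold (log2 fold change 0.44, limma adjusted p = 0.04996) with overlapping groups, and its call was lost when any library other than KO replicate 1 was left out (limma adjusted p between 0.068 and 0.165).

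The COPI coat, which returns escaped ER proteins from the Golgi, did not move as a unit. COPB2, the beta-prime subunit, had 28.1, 31.6 and 33.3 FPKM in WT and 46.1, 41.9 and 44.2 FPKM in KO (log2 fold change 0.50, SE 0.073, limma adjusted p = 0.000496). COPZ1, the zeta subunit, had 52.4, 51.4 and 52.4 FPKM in WT and 37.8, 36.3 and 39.1 FPKM in KO (log2 fold change -0.46, SE 0.052, limma adjusted p = 0.000120). The groups of each gene are apart and their directions opposite, and COPB2 lost its call with the Ballgown adjustment (log2 fold change 0.60, adjusted p = 0.073). COPA, the alpha subunit that pairs with COPB2 to bind cargo, had a log2 fold change of 0.12 and no call (limma adjusted p = 0.089), but passed as higher under median scaling (limma adjusted p = 0.010). COPE had one of -0.21, which passed (limma adjusted p = 0.042) but not after scaling to the 75th percentile (limma adjusted p = 0.078), nor without WT replicate 1 or 3 or KO replicate 1 or 2 (limma adjusted p between 0.075 and 0.148).

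**Figure D3:**
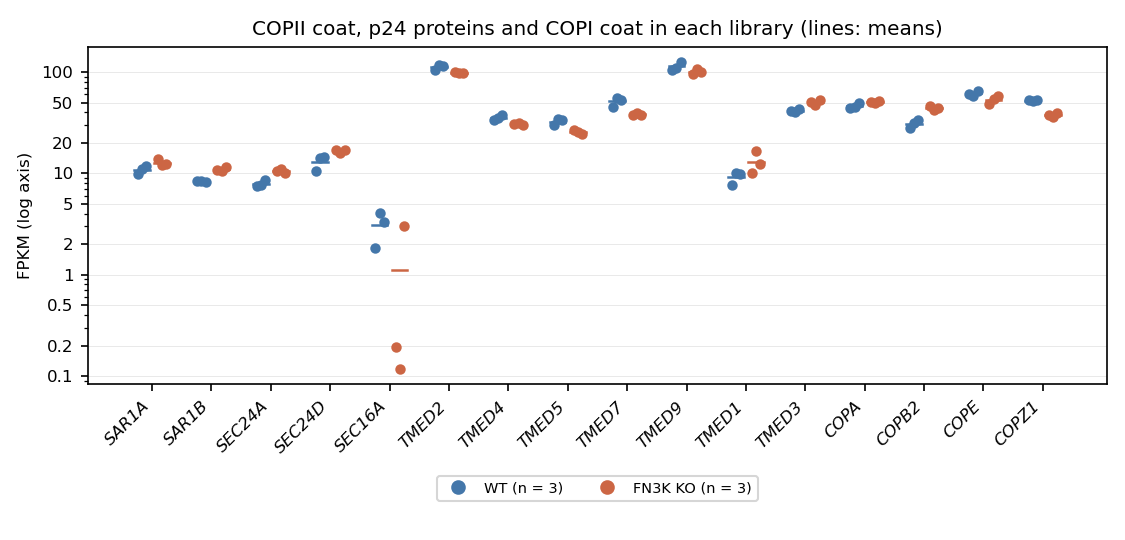
FPKM on a log axis of the COPII, p24 and COPI genes in each WT library (blue) and KO library (orange), with lines at the group means (n = 3 each). SAR1A, SAR1B, SEC24A, SEC24D, TMED3, COPA and COPB2 lie wholly higher in KO, though SAR1A and COPA were not called. TMED2, TMED4, TMED5, TMED7, COPE and COPZ1 lie wholly lower, and SEC16A spreads from 0.118 to 2.99 FPKM within KO.

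At the Golgi, 11 of 32 genes were higher, 7 lower and 14 not called, and the median was 0.11 on the log2 scale. That is 34.4% higher and 21.9% lower, against 21.2% and 36.5% of all loci. The TRAPP complexes, tethers that activate Rab1 for incoming vesicles, contributed 4 of the higher genes (57.1% of the TRAPP genes, with 14.3% lower). Of the called TRAPP genes, TRAPPC1 alone kept its call with the Ballgown adjustment. TRAPPC6B lies in the stretch of chromosome 14 described below, where most loci were higher. TRAPPC1, a core subunit, had 32.6, 32.8 and 34.1 FPKM in WT and 48.004, 47.1 and 51.99 FPKM in KO (log2 fold change 0.55, SE 0.058, limma adjusted p = 7.21e-05). TRAPPC6B had 5.87, 6.92 and 6.14 FPKM in WT and 9.68, 9.66 and 10.6 FPKM in KO (log2 fold change 0.59, SE 0.095, limma adjusted p = 0.000867), and TRAPPC12 had a log2 fold change of 0.30 (limma adjusted p = 0.023). That call was lost without WT replicate 1 or 2 or KO replicate 2 (limma adjusted p between 0.066 and 0.087). TRAPPC2P1, an intronless copy of TRAPPC2 whose fragments may be shared with it, had 3.30, 4.23 and 3.98 FPKM in WT and 5.05, 6.23 and 8.24 FPKM in KO (log2 fold change 0.62, SE 0.17, limma adjusted p = 0.0139). Without KO replicate 3 its adjusted p from limma was 0.052. TRAPPC8, a subunit of the TRAPP III form that serves autophagy, was lower (log2 fold change -0.40, SE 0.14, limma adjusted p = 0.0388), but its call was lost under median scaling (limma adjusted p = 0.061) and without any of the WT libraries or KO replicate 1 (limma adjusted p between 0.053 and 0.125). TRAPPC3 and TRAPPC4 had log2 fold changes of -0.05 and -0.02 with overlapping groups.

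AP1M2 (chr19:10572671-10587315, - strand) directs basolateral sorting in epithelial cells, and its values given above make a log2 fold change of 2.11 (SE 0.16, limma adjusted p = 1.15e-05). The ubiquitous AP1M1 was low and irregular, with 0.104, 1.18 and 3.85 FPKM in WT and 0.246, 0.624 and 0.560 FPKM in KO (log2 fold change -0.63, SE 0.58, limma adjusted p = 0.369). AP1G2, a gamma subunit of AP-1, was higher with 8.07, 6.08 and 7.59 FPKM in WT and 15.8, 13.8 and 13.5 FPKM in KO (log2 fold change 0.90, SE 0.11, limma adjusted p = 0.000189). It did not pass with the Ballgown adjustment (adjusted p = 0.11). AP1S1, a sigma subunit, had 13.4, 13.3 and 12.7 FPKM in WT and 15.01, 15.6 and 15.1 FPKM in KO (log2 fold change 0.20, SE 0.065, limma adjusted p = 0.0256). The call was lost when any library other than WT replicate 1 was left out (limma adjusted p between 0.054 and 0.077 then). All KO libraries of AP1M2, AP1G2 and AP1S1 lay above all WT libraries, and 0 of the 10 AP-1, AP-2 and AP-3 genes were called lower. Of the 10, 30% were higher and 0% lower, against 21.2% and 36.5% of all loci. The AP-2 subunits, which act in endocytosis at the plasma membrane, and the AP-3 subunits, which sort to lysosomes, had log2 fold changes between -0.12 and 0.12 and no call.

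ARF1, the GTPase that recruits COPI and AP-1, had 144, 149.9 and 162 FPKM in WT and 118, 115 and 138 FPKM in KO (log2 fold change -0.30, SE 0.079, limma adjusted p = 0.0100). ARF6, its relative at the plasma membrane, was lower too, with 20.2, 21.2 and 20.9 FPKM in WT and 14.98, 18.6 and 15.4 FPKM in KO (log2 fold change -0.33, SE 0.086, limma adjusted p = 0.00957), while ARF4 and ARF5 overlapped between the groups. With the Ballgown adjustment the adjusted p-values of ARF1 and ARF6 were 0.36 and 0.40. Of the golgins, coiled-coil tethers of the Golgi rim, GOLGA8B was the only one called: it had 2.91, 2.22 and 2.23 FPKM in WT and 0.770, 0.341 and 0 FPKM in KO (log2 fold change -1.36, SE 0.37, limma adjusted p = 0.0115). It is listed at 0 in KO replicate 3 and has near-identical copies on chromosome 15, so its value is uncertain. GOLGA2, GOLGA4 and GOLGA7 were not called. VPS51, a subunit of the GARP and EARP tethers for vesicles from endosomes, was higher with 28.02, 26.5 and 28.02 FPKM in WT and 31.8, 33.3 and 31.6 FPKM in KO (log2 fold change 0.22, SE 0.056, limma adjusted p = 0.00878).

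Of the 26 Rab GTPases, switches that mark each membrane, 7 were higher, 6 lower and 13 not called. Their 26.9% higher and 23.1% lower stand beside 21.2% and 36.5% of all loci. RAB24, linked to late autophagy, had 12.7, 13.1 and 12.8 FPKM in WT and 5.25, 6.31 and 5.29 FPKM in KO (log2 fold change -1.07, SE 0.093, limma adjusted p = 2.38e-05). RAB20, an early endosome and phagosome Rab, had 8.90, 9.29 and 9.64 FPKM in WT and 4.61, 4.42 and 4.08 FPKM in KO (log2 fold change -0.94, SE 0.099, limma adjusted p = 7.29e-05). Every KO library of both genes lay below every WT library. RAB18, which acts at the ER and lipid droplets, rose, with 6.79, 6.34 and 5.70 FPKM in WT and 9.13, 8.83 and 9.22 FPKM in KO (log2 fold change 0.47, SE 0.095, limma adjusted p = 0.00285). RAB17, an epithelial Rab of recycling endosomes, had 14.1, 9.71 and 11.1 FPKM in WT and 15.2, 14.8 and 15.9 FPKM in KO (log2 fold change 0.38, SE 0.12, limma adjusted p = 0.0210). Its call was lost when any library other than WT replicate 1 was left out (limma adjusted p between 0.0505 and 0.075). RAB29, a Golgi and lysosome Rab, had 1.37, 0 and 2.34 FPKM in WT and 4.17, 4.73 and 2.58 FPKM in KO; it is listed at 0 in WT replicate 2, and without that library the log2 fold change was 0.75 (limma adjusted p = 0.057) instead of 1.25. Its call was also lost without WT replicate 1 or KO replicate 1 or 2 (limma adjusted p between 0.052 and 0.115). The most abundant, RAB7A of late endosomes, with 78.98, 81.8 and 86.1 FPKM in WT and 88.5, 88.2 and 92.3 FPKM in KO, did not pass (log2 fold change 0.12, SE 0.053, limma adjusted p = 0.0764), although the groups do not overlap and it passed under median scaling (limma adjusted p = 0.0075). RAB6A and RAB43 of the Golgi, and RAB35 and RAB14 of recycling, were the other lower Rabs, with log2 fold changes from -0.38 to -0.18. RAB2A, RAB5B, RAB11A and RAB10 were the other higher ones, from 0.14 to 0.37. Of these, RAB10 lost its call without any of the 6 libraries (limma adjusted p between 0.064 and 0.11), and RAB14 without any library other than WT replicate 1 (0.055 to 0.13). RAB35 lost it without WT replicate 2 or 3 (limma adjusted p = 0.055 and 0.056) and RAB2A without WT replicate 2 or KO replicate 1 (0.051 and 0.061).

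Of the 6 SNAREs, the proteins that drive fusion, 3 were higher and 1 lower (50% and 16.7%, against 21.2% and 36.5% of all loci). VAMP8, which acts in fusion with late endosomes and lysosomes and in regulated secretion, had 44.03, 40.5 and 42.1 FPKM in WT and 71.8, 77.6 and 77.3 FPKM in KO (log2 fold change 0.83, SE 0.057, limma adjusted p = 6.83e-06). STX4, a plasma membrane syntaxin, had 7.36, 8.16 and 8.56 FPKM in WT and 10.2, 12.7 and 10.03 FPKM in KO (log2 fold change 0.40, SE 0.11, limma adjusted p = 0.0110), and VAMP5 had a log2 fold change of 0.29 (limma adjusted p = 0.017, but 0.060 and 0.054 without KO replicate 2 or 3). VAMP2, a vesicle SNARE for the plasma membrane, fell, with 7.77, 9.72 and 9.04 FPKM in WT and 5.73, 5.44 and 5.50 FPKM in KO (log2 fold change -0.58, SE 0.11, limma adjusted p = 0.00166). It did not pass with the Ballgown adjustment (adjusted p = 0.12). The groups of these 4 genes do not overlap, in opposite directions for VAMP8 and VAMP2. In the exocyst, a tether at the plasma membrane, EXOC7 was lower (log2 fold change -0.30, SE 0.077, limma adjusted p = 0.00968). The symbol EXOC3-AS1 also matched the names, but it is an antisense RNA that starts at EXOC3 and overlaps its first exon. It was higher (log2 fold change 0.61, limma adjusted p = 0.0097), and EXOC3 itself had -0.55 and no call (limma adjusted p = 0.053, but 0.0095 without KO replicate 2). By annotation these genes overlap only at chr5:443158-443160, where fragments cannot be told apart without strand.

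At the endosomes, 6 of 29 genes were higher and 7 lower (20.7% and 24.1%, against 21.2% and 36.5% of all loci). Their median was 0.04, or 0.01 without VPS13C. This lipid transfer protein is listed at 0 in all WT libraries and in KO replicate 1, and at 2.95 and 2.40 FPKM in the other KO libraries. Neither gene of retromer, which returns receptors from endosomes to the Golgi, was called: VPS35 had 15.5, 15.8 and 16.2 FPKM in WT and 15.9, 15.9 and 15.1 FPKM in KO (log2 fold change -0.02, SE 0.063, limma adjusted p = 0.827), and VPS29 had a log2 fold change of 0.15, called without KO replicate 2 (limma adjusted p = 0.037). Among sorting nexins, 2 of 9 were higher and 1 lower (22.2% and 11.1%, against 21.2% and 36.5% of all loci). SNX6, a partner of retromer, had 14.3, 16.3 and 18.02 FPKM in WT and 23.3, 23.2 and 22.1 FPKM in KO (log2 fold change 0.47, SE 0.084, limma adjusted p = 0.00143), and SNX8 had a log2 fold change of 0.48 (limma adjusted p = 0.012). SNX30 had 5.37, 4.80 and 4.45 FPKM in WT and 1.92, 3.39 and 3.05 FPKM in KO (log2 fold change -0.65, SE 0.19, limma adjusted p = 0.0163), and without WT replicate 1 its adjusted p from limma was 0.052. ESCRT genes, for sorting into multivesicular bodies, split: VPS37C was lower (log2 fold change -0.41, SE 0.091, limma adjusted p = 0.00447) and VPS25 higher (log2 fold change 0.18, SE 0.056, limma adjusted p = 0.0216), the latter not without WT replicate 2 or KO replicate 1 (limma adjusted p = 0.052 and 0.077). VPS39 and VPS16 of the HOPS complex, which tethers late endosomes to lysosomes, were called lower by -0.30 and -0.17, and neither passed under median scaling (limma adjusted p = 0.073 and 0.25). The call of VPS16 was lost without any of the 6 libraries (limma adjusted p between 0.061 and 0.099), and that of VPS39 without WT replicates 2 or 3 or KO replicates 1 or 3 (between 0.084 and 0.12). VPS9D1 was lower with 8.36, 11.2 and 10.5 FPKM in WT and 6.09, 6.87 and 6.33 FPKM in KO (log2 fold change -0.56, SE 0.12, limma adjusted p = 0.00333).

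**Figure D4:**
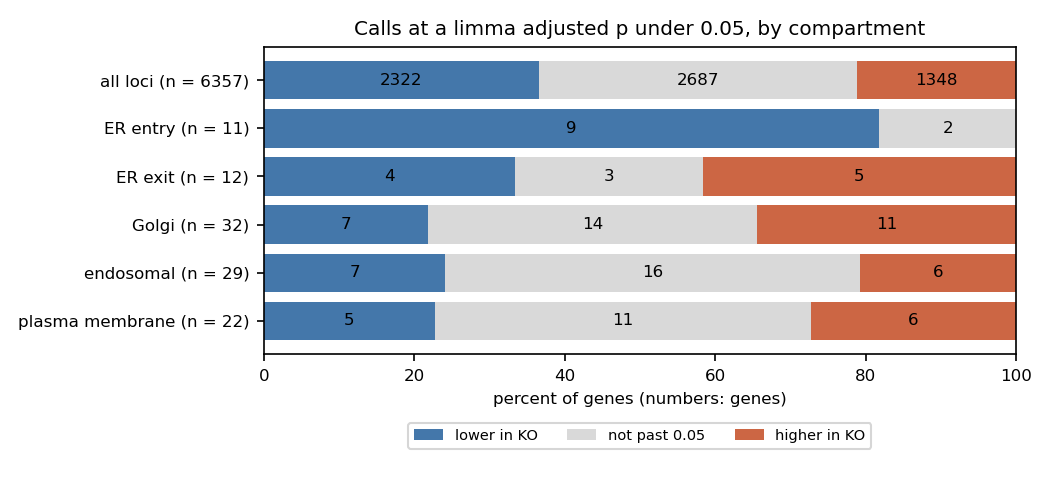
Percent of genes called lower (blue), called higher (orange) or not called (grey) in KO at a limma adjusted p under 0.05, for all 6357 loci and for the trafficking genes by compartment, with the number of genes in each bar. ER entry has 9 of 11 lower and none higher, while each of the later compartments holds both colours.

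Set side by side, ER entry had 81.8% of its genes lower and 0% higher. ER exit had 33.3% lower and 41.7% higher, the Golgi 21.9% and 34.4%, the endosomes 24.1% and 20.7%, and the plasma membrane 22.7% and 27.3%. The background was 36.5% lower and 21.2% higher. Each gene was counted in a single compartment, also where it acts at several. RAB11A, RAB11B, RAB14, RAB17 and RAB35, described above as of recycling, were counted under the plasma membrane. RAB18 was counted under the Golgi and RAB29 under the endosomes. The compartments are small groups of genes, and these shares are descriptions. Median log2 fold changes were -0.52, 0.02, 0.11, 0.04 and -0.02 in the same order.

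Paralogs were also compared by their ratio of FPKM + 1 within each library. Of 9 pairs, 4 had ratios that did not overlap between the groups, each with a two-sided exact permutation p of 0.10, the smallest that 3 libraries against 3 allow, and 0.225 after Benjamini-Hochberg adjustment over the 9 pairs. Among single loci, 63.4% did not overlap between the groups. The share among other pairs of loci was not computed, so these ratios are descriptions and not a result about paralogs. The log2 ratio of RAB5A to RAB5B, both Rabs of early endosomes, was 0.94, 0.95 and 1.01 in WT and 0.64, 0.30 and 0.51 in KO. The log2 ratio of RAB11A to RAB11B, of recycling endosomes, was -2.08, -2.06 and -2.08 in WT and -1.53, -1.83 and -1.70 in KO. In both pairs the shift came with a higher level of 1 paralog (RAB5B and RAB11A) and no call for the other. The log2 ratio of VAMP2 to VAMP3 moved from -1.92, -1.83 and -1.81 in WT to -2.37, -2.37 and -2.39 in KO. AP1M1 to AP1M2 moved by -2.74 on the log2 scale. The size of these shifts depends on the pseudocount: with 0.1 in place of 1, AP1M1 to AP1M2 moved by -3.55, and VAMP2 to VAMP3 by -0.59 instead of -0.52. SAR1A to SAR1B, ARF4 to ARF5, RAB1A to RAB1B, TMED4 to TMED9 and TMED5 to TMED7 overlapped, with differences between -0.15 and 0.09.

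Trafficking genes with other names were read from a list of 79, of which 50 are in the table: 9 were higher and 15 lower, with a median of -0.07. These shares (18% and 30%) are near the background of 21.2% and 36.5%. With the library adjustment of Ballgown, 1 gene of this list was called lower instead of 15, and the median was 0.038. Most of the lower calls given next are therefore lost with that adjustment. Of the genes that deliver ribosomes to the translocon, those called lower were SRP72 of the signal recognition particle at -0.61 (limma adjusted p = 0.00025), and the receptor subunits SRPRB at -0.50 (limma adjusted p = 0.00012) and SRPRA at -0.31 (limma adjusted p = 0.0055). SRP54 was higher (0.47, limma adjusted p = 0.00037), so 3 of the 7 genes of the particle and its receptor listed were lower and 1 higher (42.9% and 14.3%), with a median of -0.12, near that of all loci (-0.14). At ER exit, MCFD2, which loads coagulation factors into COPII vesicles with LMAN1, was lower (-0.70, limma adjusted p = 0.00015) and LMAN1 was not called (-0.16). Of other genes between ER and Golgi, PREB (-0.30), ERGIC3 (-0.48), BET1 (-0.47) and GOSR2 (-0.47) were called lower. SCFD1 (0.90) was called higher, and TFG and USO1 were not called. KDELR3, a receptor that retrieves ER chaperones from the Golgi, had 3.40, 4.17 and 4.03 FPKM in WT and 13.9, 15.9 and 18.1 FPKM in KO (log2 fold change 1.80, SE 0.12, limma adjusted p = 4.79e-06), and KDELR2, far more abundant, had a log2 fold change of 0.13 (limma adjusted p = 0.0485). The coat genes ARCN1 of COPI (0.36) and CLTC, the clathrin heavy chain (0.43), were higher.

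Because ER entry genes are known targets of the unfolded protein response, a list of its targets and sensors was read beside them. Of 18 genes, 16 are in the table, and 14 were lower, 0 higher, with a median of -0.91. That is 87.5% lower, against 36.5% of all loci, and 0% higher, against 21.2%. These counts cover only the genes on this list. KDELR3, which retrieves ER chaperones and was higher (1.80), is on the other list. HSPA5, the main ER chaperone (BiP), had 550.4, 664 and 677 FPKM in WT and 264, 264 and 262 FPKM in KO (log2 fold change -1.25, SE 0.084, limma adjusted p = 5.72e-06), and HYOU1, its nucleotide exchange factor, had 185, 229 and 227 FPKM in WT and 63.1, 71.1 and 60.1 FPKM in KO (log2 fold change -1.70, SE 0.095, limma adjusted p = 1.90e-06). HSP90B1, the ER form of HSP90, had a log2 fold change of -1.32, CALR, the lectin chaperone calreticulin, one of -0.78, and ATF6, a sensor, one of -0.67. All KO libraries lay below all WT libraries in the 14 genes. XBP1 was at 0.06 and EDEM1 at -0.24 and neither passed. Splicing of XBP1 was not analysed here. After median scaling 14 of the 16 were lower, and with the library adjustment of Ballgown 9 were. The chaperones and ER entry genes share the same libraries, so their lower values side by side are a description, as is any link between them.

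**Figure D5:**
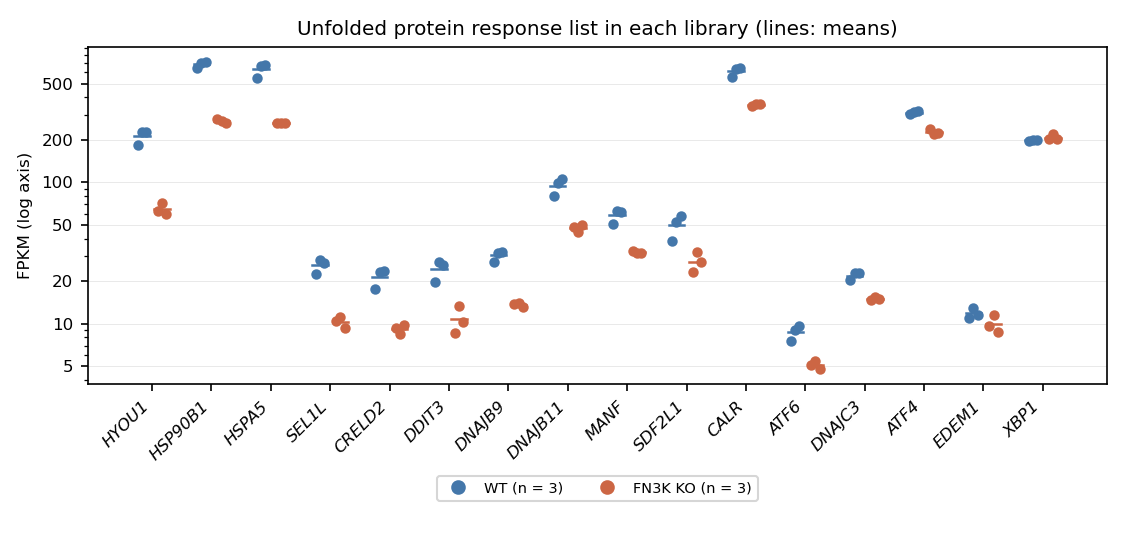
FPKM on a log axis of the 16 unfolded protein response genes in each WT library (blue) and KO library (orange), ordered from the lowest log2 fold change, with lines at the group means (n = 3 each). The KO points lie below the WT points in 14 genes, overlap them in EDEM1 and lie just above them in XBP1.

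COPII vesicles also carry the sterol sensor SCAP with its cargo SREBF1 and SREBF2, transcription factors of lipid synthesis, to the Golgi proteases MBTPS1 and MBTPS2. Of the 9 genes on this list, 8 are in the table, with 4 higher and 3 lower. That is 50% and 37.5%, against 21.2% and 36.5% of all loci. With the library adjustment of Ballgown, 2 were higher and 1 lower. SREBF2 had 26.7, 28.5 and 29.1 FPKM in WT and 51.2, 53.3 and 49.95 FPKM in KO (log2 fold change 0.85, SE 0.057, limma adjusted p = 5.51e-06), and SREBF1 was higher too (0.39, limma adjusted p = 0.00338). SCAP was lower (-0.39, limma adjusted p = 0.000526), MBTPS1 was lower (-0.69, limma adjusted p = 0.000224), and INSIG2, which holds SCAP in the ER, was lower (-0.23, limma adjusted p = 0.0139). The groups did not overlap for any of these 5 genes.

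Position in the genome moved with some of the calls. AP1G2 (chr14:23559565-23568070, - strand), SNX6 (chr14:34561094-34630183, - strand) and TRAPPC6B (chr14:39147811-39170532, - strand), all higher, lie in the stretch of chromosome 14 from ABHD4 to FBXO33, chr14:22598237-39432500, where 42 of 50 loci were higher and 1 lower, with a median of 0.60. SRP54 and SCFD1 (log2 fold change 0.90), a partner of syntaxins in traffic between ER and Golgi, lie there too. Without these 3 genes, 25 trafficking genes were higher and 32 lower. The part of this region in their calls was not tested. Exons of 62 of the 107 genes overlap exons of another annotated gene, SAR1B with SEC24A and COPB2 with MRPS22 among them, and for these the strand of the fragments would matter.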

How the data were processed

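RNA of 3 WT and 3 FN3K KO HepG2 plates was sequenced; the general protocol in the labels selects eukaryotic mRNA on oligo(dT) beads. Per the labels, the authors mapped reads with HISAT2 to GRCh38.p5 and quantified assembled loci with StringTie 2.0.6; the deposited values are FPKM per locus, with no counts, and the filter on loci is not given in the sources used here. Because depth is unknown, no counting interval was computed, and the number of libraries sets the precision. Replicate numbers did not pair the libraries.

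Trafficking genes were taken by symbol, and roles and compartments were assigned by textbook function. The genes and lists were chosen with earlier results of these data known. Log2(FPKM + 1) of all 6357 loci was tested in R 4.3.3 with limma 3.58.1 (eBayes with a variance trend), KO against WT, with no block, and p-values were adjusted by Benjamini-Hochberg; the model was also tested on simulated data. Ratios of paralogs were compared with exact permutation tests. Settings varied were the pseudocount (0.1), a floor on the mean (1 FPKM), the scaling of libraries (by 75th percentile or by median), the variance trend (none), the library adjustment of Ballgown, the authors' tool, a block for the replicate number, and the libraries, leaving out each in turn. Protein-coding genes alone, and genes outside a stretch of chromosome 14, were added after seeing the data.

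Genes were named by rule: in each role the highest and lowest called log2 fold change and the highest mean, the 10 largest called changes without overlap of the groups, the members of 9 paralog pairs, FN3K, and list members beside their list. Other trafficking genes named were chosen after their values were seen. Some genes of the sterol list are not reported here. Coordinates are from GENCODE version 29 (GRCh38), found through transcript identifiers for all 107 genes, and promoters from RefSeq (GRCh38.p14). Tables and figures were made with pandas 2.3.3, scipy 1.17.1 and matplotlib 3.10.9 in Python 3.11.15.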

Additional observations from a re-analysis of the deposited data

How the results depend on the processing

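With the library adjustment of Ballgown, 7 trafficking genes were higher and 10 lower (1 and 1 with a log2 fold change beyond 1), with a median of 0.078. Over all 6357 loci it called 606 higher and 521 lower. By compartment it gave 1 higher and 0 lower at ER exit (median 0.14), 3 and 1 at the Golgi (median 0.16), 2 and 3 at the endosomes, and 1 and 0 at the plasma membrane (median 0.10). It called 1 gene of the other trafficking machinery lower (median 0.038), 2 sterol sensing genes higher and 1 lower, and 9 unfolded protein response genes lower (median -0.65). ER entry had 6 lower and 0 higher. Among all loci, 53.8% of called loci were higher with it, against 36.7% as deposited.

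Scaling to a common median gave medians of 0.049 over the trafficking genes, -0.44 at ER entry, 0.18 at the Golgi (17 higher), 0.11 at the endosomes and -0.00113 in the other machinery (14 higher), with 2 lower at ER exit. Scaling to the 75th percentile gave -0.47 at ER entry and 0.15 at the Golgi. Without the variance trend 3 genes were higher at ER exit. Leaving out each library in turn left 1 to 2 trafficking genes higher with a log2 fold change beyond 1, since RAB29 dropped out without WT replicate 2 or KO replicate 2. ER entry gave 0 to 1 higher and a median of -0.55 to -0.45, ER exit 3 to 4 higher and 2 to 5 lower, the endosomes a median of -0.022 to 0.063, the plasma membrane 3 to 5 higher, 3 to 6 lower and a median of -0.058 to 0.068, and the unfolded protein response a median of -1.04 to -0.85. The cause was not tested.

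Over all settings, values changed sign for 20 of the 107 trafficking genes, 0 of them called as deposited. Those named by rule follow. With the Ballgown adjustment AP1M1 was at 0.75, AP2S1 at 0.078, TMED9 at 0.016 and VPS35 at 0.026. With median scaling ARF5 was at 0.028, VAMP3 at 0.012 and VPS35 at 0.053, and with the 75th percentile ARF5 was at 0.0011 and VPS35 at 0.027. Leaving out a library gave ARF4 -0.041 to 0.072, ARF5 -0.13 to 0.012 and VPS35 -0.032 to 0.0070. With the replicate number as a block, 26 trafficking genes were higher and 31 lower, and AP1S1, RAB10, RAB14, VPS16 and VPS39 lost their call while SEC16A and EXOC3 gained one, both as lower. Deviations of libraries with the same number correlated at 0.010, 0.006 and 0.046, so the numbers name the plates and do not pair them. Depth is unknown, which leaves low values such as those of SEC16A, AP1M1, GOLGA8B and RAB29 without a counting error.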
